A study of Mus musculus with 4 samples.

Results

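The CXC and CX3C chemokines described here are 10 genes, Cxcl1, Cxcl2, Cxcl3, Cxcl9, Cxcl10, Cxcl12, Cxcl13, Cxcl14, Cxcl16 and Cx3cl1. They are a gene family taken by symbol from the 54532 genes of the deposited count tables, and all 10 were among the 13811 protein-coding genes tested. RNA was sequenced from primary microglia, the resident macrophages of the brain, in 4 libraries. The cells had received EGCG (epigallocatechin gallate, a flavan-3-ol of green tea) at 1 µM for 24 h in 2 libraries and the DMSO vehicle (Vehicle) in the other 2. Each treatment has a replicate 1 and a replicate 2, which the labels call biological replicates. All cells came from cortices of male CD1 mouse pups and were grown as mixed glia with GM-CSF. The astrocyte layer was then removed with trypsin, and the microglia were held in serum-free medium with IL-34, TGFβ2, GM-CSF and cholesterol, in both groups alike. The groups therefore describe cultured neonatal microglia under growth factors and not microglia in the brain.

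Chemokines are small secreted proteins that guide migrating cells through receptors on their surface. Those of the CXC class carry a single residue between their first paired cysteines, and Cx3cl1, the only CX3C member, carries several. Cxcl1, Cxcl2 and Cxcl3 draw neutrophils through Cxcr2, whereas Cxcl9 and Cxcl10 are interferon-induced and draw T cells through Cxcr3. Cxcl12 is a stromal ligand of Cxcr4, Cxcl13 guides B cells through Cxcr5, and Cxcl14 is a constitutive tissue chemokine. Cxcl16 and Cx3cl1 are made as membrane-anchored proteins that the proteases Adam10 and Adam17 can release, and Cx3cl1 from neurons signals to Cx3cr1 on microglia.

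The replicate 1 libraries held 33752397 counts on genes (Vehicle) and 34259608 (EGCG), and the replicate 2 libraries held 36265508 (Vehicle) and 54909854 (EGCG). EGCG replicate 2 was 1.51 times as deep as Vehicle replicate 2. A count of 3 was used as the detection floor and equals 0.0914, 0.0936, 0.0818 and 0.0544 CPM in that order of libraries (CPM are counts scaled to a common library size after TMM normalization). All 10 microglia markers examined were detected in every library, led by C1qa at 1443, 1688, 3155 and 2794 CPM. The 8 astrocyte markers summed to between 14.3 and 22.6 CPM. Aldh1l1 was the most abundant of them in every library and made up most of the sum except in Vehicle replicate 1. Markers of fibroblasts or mural cells were also present and are given beside the chemokines concerned. In bulk RNA, fewer cells of a type and less RNA per cell cannot be told apart.

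Of the 10 genes, 6 lie on chromosome 5 of GRCm38. Cxcl3 (chr5:90786103-90789600), Cxcl1 (chr5:90891241-90893115) and Cxcl2 (chr5:90903871-90905938) are encoded on the plus strand within 119.8 kb. Cxcl9 (chr5:92321347-92328079) and Cxcl10 (chr5:92346638-92348889) lie within 27.5 kb on the minus strand, and Cxcl13 (chr5:95956951-95961068) lies further along on the plus strand. The other 4 are Cxcl12 (chr6:117168535-117181367), Cxcl14 (chr13:56288643-56296551), Cxcl16 (chr11:70453983-70459984) and Cx3cl1 (chr8:94772009-94782427).

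The promoter stretches of the 3 neutrophil chemokines and of Cxcl10 are shown because Cxcl1 and Cxcl10 differed most steadily between treatments in the replicate pairs, and Cxcl2 and Cxcl3 are the close paralogues of Cxcl1. Sequences are from RefSeq on GRCm38.p6 and run 5′ to 3′ along the gene's strand. For Cxcl1 (chr5:90891145-90891244), Cxcl2 (chr5:90903799-90903898) and Cxcl3 (chr5:90786001-90786100) the 100 bases before the RefSeq start site are printed. These start sites differ from the gene starts given above, so the last bases for Cxcl1 and Cxcl2 lie inside those gene coordinates. For Cxcl10 (chr5:92348980-92349109, minus strand) the stretch runs from -220 to -91. Capitals mark matches to the NF-kB consensus and, at the 5′ end of the Cxcl10 stretch, to the core of the interferon-stimulated response element (ISRE), searched as GAAANNGAAA.
Cxcl1: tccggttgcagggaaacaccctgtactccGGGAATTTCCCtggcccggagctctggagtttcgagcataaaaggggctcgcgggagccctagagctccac
Cxcl2: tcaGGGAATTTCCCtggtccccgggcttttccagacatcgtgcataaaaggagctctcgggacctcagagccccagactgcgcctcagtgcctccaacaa
Cxcl3: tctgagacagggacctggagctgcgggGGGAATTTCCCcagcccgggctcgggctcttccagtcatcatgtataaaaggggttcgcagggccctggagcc
Cxcl10: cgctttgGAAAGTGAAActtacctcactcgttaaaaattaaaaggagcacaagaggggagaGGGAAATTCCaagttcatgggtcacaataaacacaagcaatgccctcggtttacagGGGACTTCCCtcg

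Promoter windows of 300 bases, 250 before and 50 after the start site, were searched on both strands for 9 of the 10 genes, all except Cxcl16. The NF-kB consensus matched in 4 of these 9 and in 4.51% of all 32851 windows. In Cxcl1, Cxcl2 and Cxcl3 it matched the same 11 bases, once on each strand with overlap, from -71, -97 and -73. Cxcl10 had 2 matches, from -159 and -103. The ISRE core matched in Cxcl10 from -213 and in Cxcl14 from -172, and in 3.44% of all windows. These matches describe letters in the sequence only.

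The chemokines spanned a wide range of levels, and their order was compared per gene length in TPM. Cxcl16 was the most abundant, at 272 and 294 TPM in Vehicle and EGCG of replicate 1 and 514 and 533 TPM in replicate 2. It lay at the 98.0th percentile of the genes tested and made up between 40.9% and 60.8% of the summed TPM of the 10 genes. Cxcl13 followed at 116, 105, 172 and 249 TPM (Vehicle 1, EGCG 1, Vehicle 2, EGCG 2, an order kept below). Cxcl14 had 199, 181, 46.8 and 51.6 TPM, so that it exceeded Cxcl13 in replicate 1 and was below it in replicate 2. Cxcl2 had between 57.7 and 86.3 TPM and overlapped the range of Cxcl14. These 4 genes lay above the 87th percentile.

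The other 6 chemokines were far lower. Cxcl10 had 7.61, 11.8, 13.9 and 20.8 TPM, near the middle of the genes tested. Its range was below that of Cxcl2 and overlapped that of Cxcl1, which had between 0.602 and 11.4 TPM. Cxcl3 had between 2.03 and 4.24 TPM, within the range of Cxcl1. Cx3cl1 followed with a mean of 0.970 TPM, Cxcl12 with 0.603 and Cxcl9 with 0.245, and neighbours among these 3 overlapped. For 4 genes (Cxcl1, Cxcl2, Cxcl3 and Cxcl10) the length in the deposited tables equals the whole gene span, introns included, so their TPM would be higher with a length of spliced exons.

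**Figure D1:**
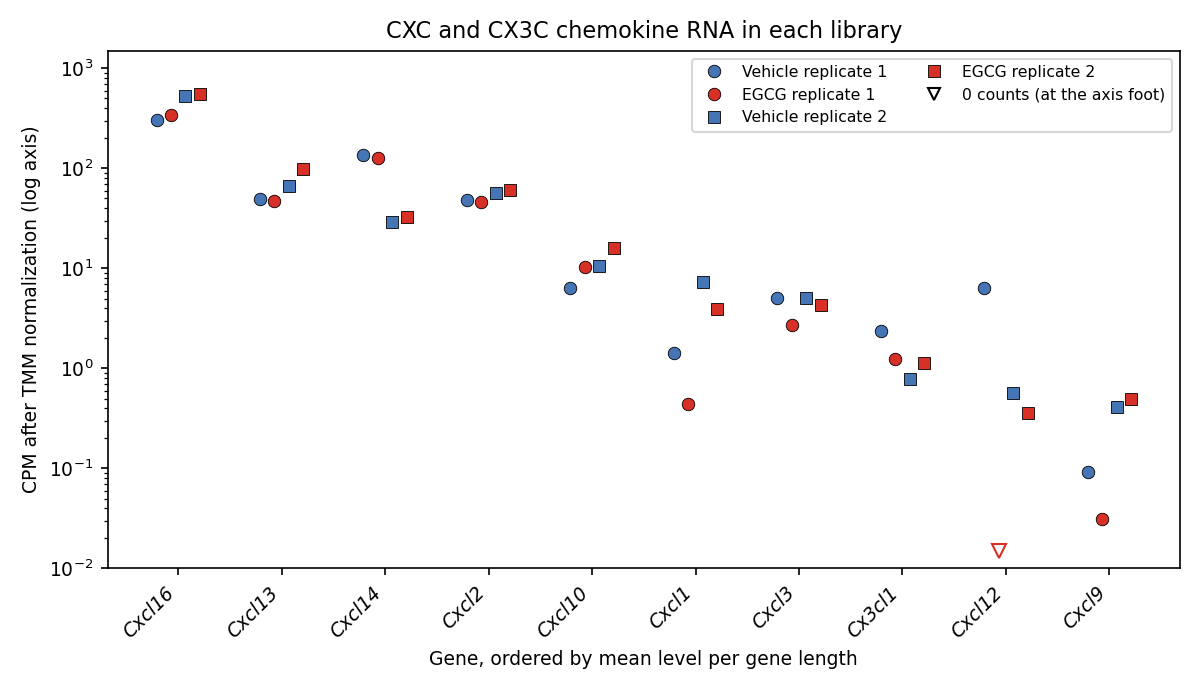
CPM of each chemokine (log axis) in the 4 libraries, with blue for Vehicle, red for EGCG, circles for replicate 1 and squares for replicate 2. The open triangle is EGCG replicate 1 for Cxcl12, which had 0 counts. Cxcl16 lies between 307 and 553 CPM, and for Cxcl1 and Cxcl14 the replicates lie further apart than the treatments.

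The first comparison asked whether EGCG altered chemokine RNA relative to Vehicle. With treatment as the only term, edgeR's quasi-likelihood test gave an unadjusted p under 0.05 for 0 of the 10 chemokines, against 16 of all 13811 genes (0.116%, 4 higher and 12 lower with EGCG). Every chemokine had a Benjamini-Hochberg adjusted p of 1.00. DESeq2 gave 1 chemokine, Cxcl12, with an unadjusted p of 0.0183 (adjusted p = 1.00), against 24 of all genes (0.174%). The median log2 fold change was -0.00 for the chemokines and 0.01 for all genes tested. When the replicate number was added as a block, edgeR gave 2 chemokines, Cxcl10 (higher) and Cxcl1 (lower), against 3.21% of all genes (2.12% higher and 1.09% lower). DESeq2 with the block gave the same 2, against 1.11% of all genes. The smallest adjusted p of any chemokine with the block was 0.995 in edgeR and 1.00 in DESeq2, so none passed the threshold of 0.1. With 2 libraries against 2, an exact permutation test cannot give a two-sided p below 0.333, and the blocked fit rests on 1 residual degree of freedom.

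**Figure D2:**
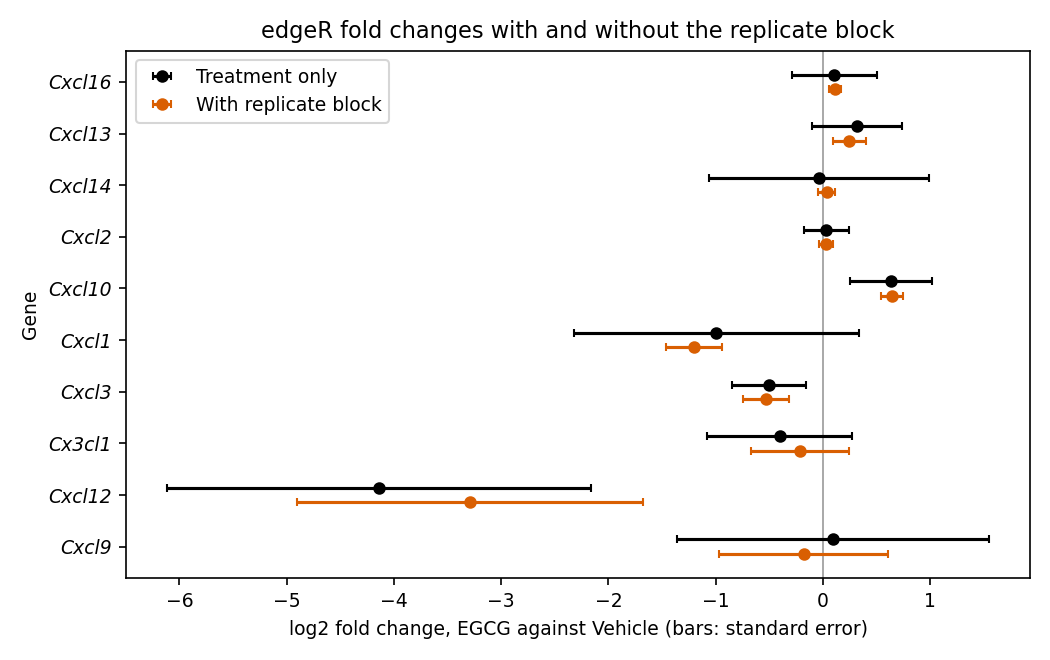
Log2 fold change of each chemokine in EGCG against Vehicle, with standard errors as bars, from edgeR with treatment only (black) and with the replicate block (orange). Bars are narrower under the block for every chemokine, including Cxcl10 (0.64 in both fits) and Cxcl1 (-0.99 and -1.20). Cxcl12 has wide bars in both.

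Cxcl10 was higher in EGCG-treated microglia than in the Vehicle library of the same replicate. It had 210 and 331 counts in Vehicle and EGCG of replicate 1 and 388 and 886 counts in replicate 2, or 6.40, 10.3, 10.6 and 16.1 CPM. The mean was 8.49 ± 2.96 CPM in Vehicle and 13.2 ± 4.05 CPM in EGCG (SD, n = 2 each). The groups overlapped slightly, since EGCG replicate 1 was just below Vehicle replicate 2. The log2 difference of EGCG from Vehicle was 0.69 in the first pair and 0.60 in the second. The log2 fold change was 0.64 ± 0.38 (SE) without the block (edgeR, unadjusted p = 0.175, adjusted p = 1.00) and 0.64 ± 0.10 with it (unadjusted p = 0.00122, adjusted p = 0.995). Cxcl10 ranked 11 of 13811 by p in the blocked fit. Art3, a gene on the opposite strand that overlaps Cxcl10, had at most 3 counts in a library.

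Cxcl1 was lower with EGCG in both replicates. It had 47 and 14 counts in replicate 1 and 266 and 215 in replicate 2, which were 1.43, 0.437, 7.26 and 3.90 CPM. The groups overlapped widely, because both libraries of replicate 2 were above both of replicate 1. Within the pairs, the log2 difference was -1.60 for replicate 1 and -0.89 for replicate 2. The log2 fold change was -0.99 ± 1.33 (SE) without the block (edgeR, unadjusted p = 0.496, adjusted p = 1.00) and -1.20 ± 0.26 with it (unadjusted p = 0.00543, adjusted p = 0.995). Without the library of Vehicle replicate 2, the unblocked value turned to 0.60, with Vehicle replicate 1 alone set against both EGCG libraries. Beside Cxcl1, the 8 fibroblast and mural markers summed to 679 CPM in Vehicle and 260 CPM in EGCG of replicate 1 and to 333 and 343 CPM in replicate 2. The endothelial cadherin gene Cdh5 had 79 and 26 counts in replicate 1 and 34 and 13 in replicate 2, lower with EGCG in both by 1.51 and 1.77 on the log2 scale (edgeR with the block, unadjusted p = 0.00584, adjusted p = 0.995). The other endothelial markers tested did not share this, with log2 differences of -0.00 and 0.28 for Flt1, the most abundant, and -0.09 and -0.08 for Kdr, and the list summed to 183, 180, 57.2 and 68.0 CPM. The part of other cell types in the Cxcl1 value was not tested.

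The paralogues of Cxcl1 did not share its size of difference. Cxcl2 had 1568, 1482, 2099 and 3378 counts, or 47.8, 46.3, 57.3 and 61.2 CPM, and the groups overlapped. Its log2 differences were -0.05 and 0.10, and its fold change was 0.03 ± 0.21 (SE) in edgeR without the block and 0.03 ± 0.07 with it. Cxcl3 had 166, 88, 184 and 240 counts, or 5.06, 2.75, 5.02 and 4.35 CPM. Both EGCG libraries were below both Vehicle libraries, by 0.87 and 0.20 on the log2 scale within the replicates. The fold change of Cxcl3 was -0.50 ± 0.35 (SE) in edgeR without the block (unadjusted p = 0.223, adjusted p = 1.00). With the block it was -0.53 ± 0.22 (edgeR, unadjusted p = 0.0561). Cxcl2 and Cxcl3 transcripts were 90.0% identical over 561 nucleotides, so reads could be shared between them, whereas Cxcl1 was 72.6% identical to Cxcl2 and 71.4% to Cxcl3.

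Groups that did not overlap were seen for 2 of the 10 chemokines, Cxcl3 and Cxcl12, against 11.9% of all genes tested. In both of them EGCG was below Vehicle, which held for 5.51% of all genes. EGCG was above Vehicle in both replicates for 2 chemokines, Cxcl10 and Cxcl16, against 29.9% of all genes. It was below Vehicle in both replicates for 3, Cxcl1, Cxcl3 and Cxcl12, against 20.6% of all genes. Cxcl2, Cxcl13, Cxcl14 and Cx3cl1 had differences of opposite sign in the 2 replicates, and Cxcl9 had too few counts in replicate 1 (3 and 1) to give a sign.

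**Figure D3:**
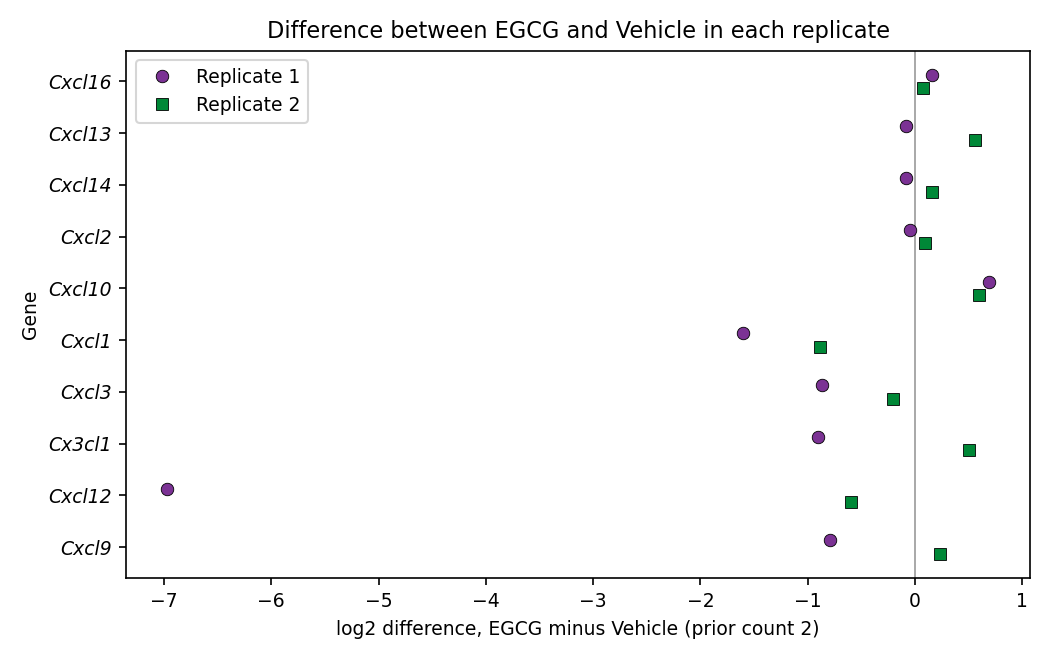
Log2 difference between EGCG and Vehicle (prior count 2) for each chemokine in replicate 1 (circles) and replicate 2 (squares). Cxcl10 is above 0 and Cxcl1 below 0 by more than 0.5 in both replicates, while Cxcl12 is at -6.97 in replicate 1 and -0.59 in replicate 2. The point of Cxcl9 in replicate 1 rests on 3 and 1 counts.

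Cxcl12 had the widest difference in a single replicate. Its counts were 208 (Vehicle) and 0 (EGCG) in replicate 1, then 21 and 20 in replicate 2, or 6.34, 0, 0.573 and 0.363 CPM. In replicate 1 it was at least 67.7-fold lower with EGCG, taking 3 counts per library as the floor. In replicate 2 the log2 difference was -0.59. The log2 fold change was -4.14 ± 1.97 (SE) in edgeR without the block (unadjusted p = 0.105, adjusted p = 1.00). With the block it was -3.29 ± 1.61 in edgeR (unadjusted p = 0.0950), and the blocked DESeq2 p was 0.106. The fitted value depends on the prior count, since 1 library is at 0, and its size rests on replicate 1. Without Vehicle replicate 2 or EGCG replicate 2, the unblocked edgeR log2 fold change of Cxcl12 was -5.01 or -9.88, with the replicates no longer matched.

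Several genes of fibroblasts and mural cells were also far lower in EGCG replicate 1 than in Vehicle replicate 1. Of the 8 markers, 0 had an unadjusted p under 0.05 in edgeR with or without the block, and 1 (Pdgfrb) did in DESeq2 with the block. The 8 markers summed to 679, 260, 333 and 343 CPM, with Postn, an extracellular matrix protein, the most abundant at 253, 254, 171 and 165 CPM. Fibrillar collagen Col1a1 had 3962 counts with Vehicle but 4 with EGCG in replicate 1, and 1344 and 2040 in replicate 2. The matrix proteoglycan gene Lum had 70, 0, 126 and 176 counts, and unlike Cxcl12 it was not higher in Vehicle replicate 1 than in Vehicle replicate 2. In replicate 1, 6 of the 8 markers were lower with EGCG by over 1 log2 unit (5.45% of all genes tested), and in replicate 2 this held for 0 of 8 (1.48% of all genes tested). The exceptions in replicate 1 were Postn and Pdgfra. Some astrocyte markers were low in the same library. Gja1 had 160, 1, 66 and 107 counts, Aqp4 had 20, 0, 5 and 12, and Gfap had 12, 2, 22 and 47, while Aldh1l1 had 339, 383, 330 and 506 counts. The median log2 difference of the 7 astrocyte markers tested was -0.47 in replicate 1 and 0.10 in replicate 2, and 0 of them had an unadjusted p under 0.05 in edgeR with or without the block or in DESeq2 with the block. The part of these cells in the Cxcl12 and Cxcl1 values was not tested. The 3 tested genes whose pattern over the 4 libraries was most like that of Cxcl12 were Svep1, Col16a1 and Col8a1, at Euclidean distances of 1.21, 1.24 and 1.26 between centred log2 CPM values.

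**Figure D4:**
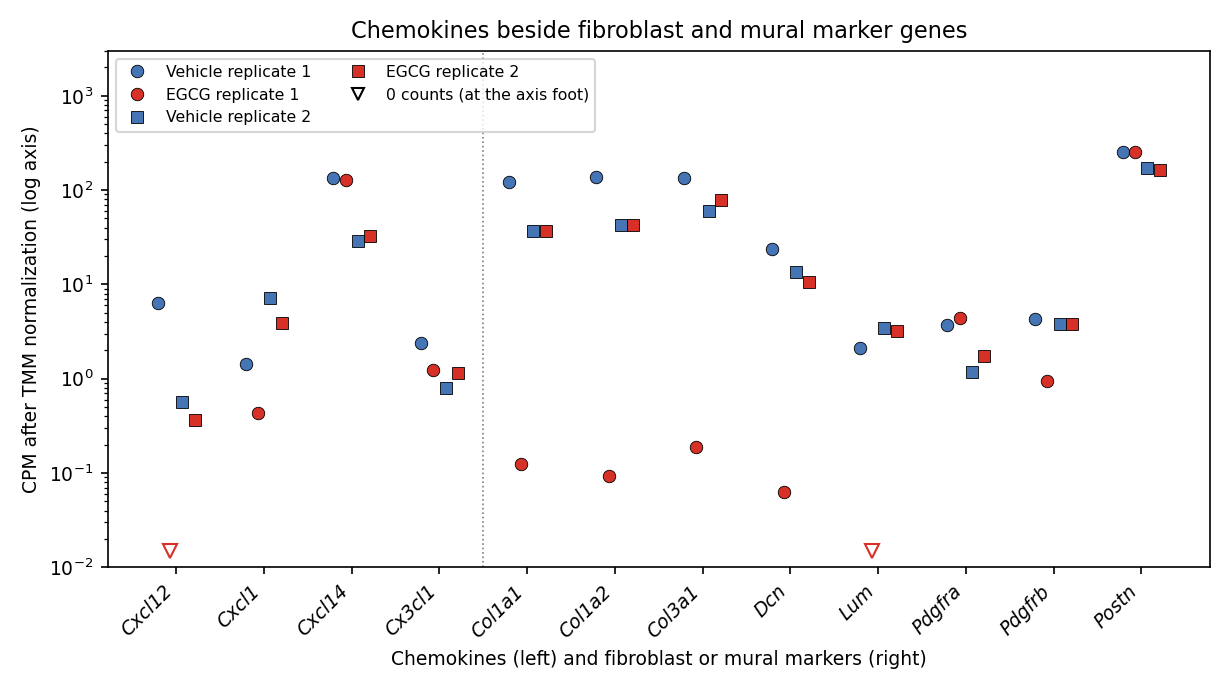
CPM (log axis) of 4 chemokines and of 8 fibroblast or mural markers in the 4 libraries, coloured by treatment and shaped by replicate, with open triangles for 0 counts. EGCG replicate 1 is the lowest library for Cxcl12, Cxcl1, Col1a1, Col1a2, Col3a1, Dcn, Lum and Pdgfrb, and close to Vehicle replicate 1 for Cxcl14 and Postn.

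Cxcl16, the most abundant of the 10, had 10085, 11006, 19273 and 30482 counts, or 307, 343, 526 and 553 CPM. EGCG was above Vehicle in both replicates by 0.16 and 0.07 on the log2 scale, and the groups overlapped. The fold change was 0.10 ± 0.39 (SE) without the block and 0.12 ± 0.05 with it (edgeR, unadjusted p = 0.804 and 0.0875). Zmynd15, which overlaps Cxcl16 on the opposite strand over 552 transcribed bases, had 551, 603, 1255 and 1874 counts. The study describes strand-specific quantification, but the strand setting of the counting step is not given in the sources used here.

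Cxcl13 had 1628, 1500, 2453 and 5428 counts, or 49.6, 46.8, 66.9 and 98.4 CPM. EGCG replicate 2 was the highest library, and the difference was -0.08 in replicate 1 and 0.56 in replicate 2. Its log2 fold change was 0.32 ± 0.42 (SE) in edgeR without the block (unadjusted p = 0.496, adjusted p = 1.00). With the block it was 0.24 ± 0.15 (edgeR, unadjusted p = 0.166, adjusted p = 0.995). Cx3cl1 had 78, 40, 29 and 63 counts, or 2.38, 1.25, 0.791 and 1.14 CPM, with log2 differences of -0.90 and 0.50. The direction for Cx3cl1 was thus opposite in the 2 replicates. Its edgeR fold change was -0.40 ± 0.68 (SE) without the block and -0.22 ± 0.45 with it. Cxcl9 had 3, 1, 15 and 27 counts, so replicate 1 lay at or under the floor and gives no usable ratio. In replicate 2 the log2 difference for Cxcl9 was 0.23.

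The second comparison set the replicates against each other within each treatment, without a test, since each replicate number stands for a single pair of libraries. In both treatments, replicate 2 was higher by over 1 log2 unit for Cxcl1 and Cxcl9 (4.31% of all genes tested), the latter resting on 3 and 1 counts in replicate 1 and so without a usable size, and replicate 1 was higher by over 1 for Cxcl14 (7.73% of all genes tested). Cxcl14 was higher in replicate 1, with 4446 and 4104 counts in Vehicle and EGCG against 1062 and 1785 in replicate 2. These counts gave 135, 128, 29.0 and 32.4 CPM, a ratio of replicate 1 to replicate 2 of 4.68 in Vehicle and 3.96 in EGCG. Between treatments Cxcl14 differed by -0.08 and 0.16 within the replicates, and its fold change was -0.04 ± 1.03 (SE) without the block and 0.03 ± 0.08 with it. Abcb1b, Myo1d and Gm9844 were the tested genes most like Cxcl14 over the 4 libraries, at distances of 0.07, 0.07 and 0.08.

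Cxcl1 had the opposite pattern and was higher in replicate 2, by 2.30 in Vehicle and 3.02 in EGCG on the log2 scale. Its ratio of replicate 2 to replicate 1 was 5.07 and 8.92. Cxcl2 differed by only 0.26 and 0.40 between replicates, so that the CPM ratio of Cxcl2 to Cxcl1 was 33.4 and 105.9 in replicate 1 and 7.89 and 15.7 in replicate 2. The genes most like Cxcl1 were Dlc1, Ptgs2, which encodes an inducible prostaglandin synthase, and Gm8369, at distances of 0.42, 0.72 and 0.79. Ptgs2 had 441 and 180 counts in replicate 1 and 1797 and 2784 in replicate 2. Cxcl16 was higher in replicate 2 by 0.77 and 0.69, and Cxcl10 by 0.72 and 0.63.

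Some markers of other cell types also differed between the replicates. The 4 neuron markers summed to 17.5 and 16.7 CPM in Vehicle and EGCG of replicate 1 and to 0.791 and 1.14 CPM in replicate 2. Nearly all of the replicate 1 sums was Snap25, at 17.2 and 16.4 CPM. In replicate 2 Snap25 had 0.518 and 0.653 CPM, a smaller share of the sums. Rbfox3 and Tubb3 had at most 0.272 CPM in a library with no such fall, and Syt1 was at 0 in both Vehicle libraries. Endothelial markers summed to 183 and 180 CPM in replicate 1 and 57.2 and 68.0 CPM in replicate 2, most of it Flt1 at 175, 175, 53.3 and 64.9 CPM, with Cldn5 at 0 throughout. The 5 border macrophage markers summed to 978 and 1084 CPM in replicate 1 and 629 and 590 CPM in replicate 2, with Cd163 at 0 in EGCG replicate 1 and Vehicle replicate 2. Within this list Pf4 and Siglec1 were higher in replicate 1, but Mrc1 was higher in replicate 2, at 214, 245, 354 and 327 CPM. Oligodendrocyte lineage markers summed to 148 and 147 CPM in replicate 1 and 111 and 113 CPM in replicate 2. Within this list Cspg4 was higher in replicate 1, at 75.5, 72.5, 39.2 and 40.3 CPM, whereas Mbp had between 69.5 and 71.2 CPM in every library. The part of these cells in the replicate differences of Cxcl14, Cxcl1 and Cx3cl1 was not tested.

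**Figure D5:**
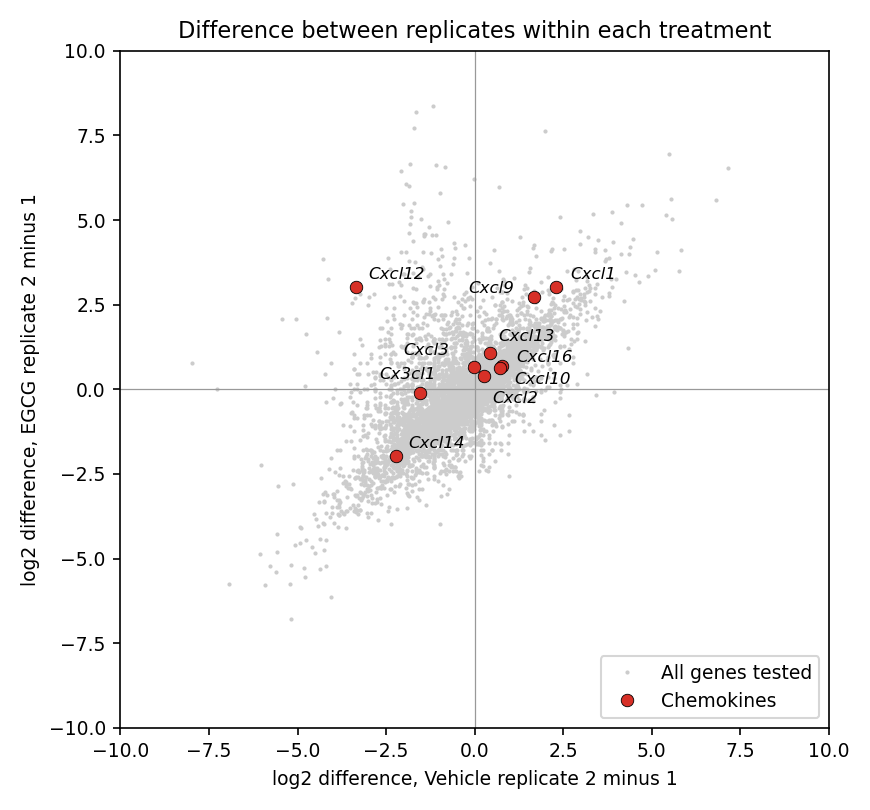
Log2 difference between replicate 2 and replicate 1 in Vehicle (horizontal axis) and in EGCG (vertical axis) for the chemokines (red) and all 13811 genes tested (grey). Cxcl1, Cxcl9 and Cxcl14 lie beyond 1 on both axes on the same side of 0, whereas Cxcl12 lies at -3.36 and 3.02. Cxcl9 had 3 and 1 counts in replicate 1, and Cxcl12 had 0 in EGCG replicate 1, so their positions depend on the prior count.

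Of the other CXC ligands, Pf4, the platelet factor that macrophages also express, was above every chemokine described here in TPM in replicate 1 and in Vehicle replicate 2, at 1677, 1861 and 583 TPM, and at 524 TPM in EGCG replicate 2 it was just below Cxcl16. Pf4 lies next to Cxcl3 on chromosome 5 and had 451, 520, 142 and 130 CPM, higher in replicate 1 as Cxcl14 was. Cxcl5, a further ligand of Cxcr2, had 51, 22, 118 and 176 counts. Cxcl15 and Cxcl17 had 0 counts in every library. Of the 6 other CXC ligands, 3 were tested and 0 had an unadjusted p under 0.05 in edgeR with or without the block.

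Of the 9 receptors listed, 6 were tested and 0 had an unadjusted p under 0.05 in edgeR with or without the block. Cx3cr1, the receptor of Cx3cl1, was the most abundant at 267, 274, 605 and 637 CPM, about level between treatments in each replicate (log2 differences of 0.04 and 0.07). Cxcr4, the receptor of Cxcl12, was even across libraries at 60.4, 59.8, 54.6 and 58.9 CPM. Cxcr3, which binds Cxcl9 and Cxcl10, had 13, 15, 58 and 91 counts. Cxcr2, which binds Cxcl1 to Cxcl3, had 16, 33, 2 and 5 counts, and Cxcr6, the receptor of Cxcl16, had 6, 3, 8 and 29. Cxcr5, the receptor of Cxcl13, had at most 4 counts in a library.

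The regulators and proteases of the chemokines were examined as fixed lists. Over the 24 tested genes of the ligand, receptor, protease and NF-kB lists, 0 had an unadjusted p under 0.05 in edgeR without the block. With the block there were 3, all higher with EGCG, and 0 lower, against 3.21% of all genes (2.12% higher). DESeq2 with the block gave 2, without Mmp9 (unadjusted p = 0.129, adjusted p = 1.00), against 1.11% of all genes. The median blocked log2 fold change was 0.03 for the NF-kB list, against 0.01 for all genes tested. Nfkbia and Tnfaip3, both NF-kB targets that restrain the pathway, were 2 of 10 NF-kB genes. Nfkbia had 60.4, 72.3, 103.5 and 116.9 CPM, and Tnfaip3 had 124.5, 137.1, 124.3 and 154.0 CPM. Mmp9, a gelatinase that cleaves several CXC chemokines, had 249, 283, 200 and 348 CPM and was 1 of 5 proteases tested, with the larger difference in replicate 2 (0.80 against 0.19). Mmp12 was the most abundant protease, and Adam10 and Adam17 differed by at most 0.20 in a replicate. Mmp2, a further gelatinase, had 239, 52, 110 and 214 counts, with log2 differences of -2.13 in replicate 1 and 0.36 in replicate 2. No gene of these lists had an adjusted p under 0.1 in edgeR or DESeq2, with or without the block.

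The genes whose pattern over the 4 libraries was nearest to that of each remaining chemokine were taken from 11593 tested genes with at least 100 counts. For Cxcl10 they were Il12rb2, a subunit of the interleukin-12 receptor, Hsd17b14 and Tlr12, at distances of 0.15, 0.16 and 0.19. Il12rb2 had 111, 152, 198 and 443 counts. For Cxcl16 they were Sh3bp4, Nsmaf and Rel, an NF-kB subunit, each at 0.02. Rel had 42.0, 47.2, 71.6 and 74.5 CPM, with the same order of libraries as Cxcl16. The nearest single gene was Nkapd1 for Cxcl2 (0.01), Cdnf for Cxcl3 (0.06), Ccl7 for Cxcl9 (0.20), Cgn for Cxcl13 (0.12) and Gdap1l1 for Cx3cl1 (0.10). These distances rest on 4 libraries and are a description only.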

How the data were processed

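The authors aligned paired-end, strand-specific poly-A reads with HISAT2 to GRCm38.p6 and deposited raw counts per gene in 1 table per replicate. The counting program and its strand setting are not given in the sources used here. Tables were joined on gene identifiers (54532 genes). Separately assembled loci (697 and 329) were left out.

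Counts of protein-coding genes with at least 10 reads summed over libraries were tested in edgeR 4.0.16 (R 4.3.3, TMM, quasi-likelihood F test, two-sided, Benjamini-Hochberg over 13811 genes). DESeq2 1.42.0 was an alternative. Log2 CPM used a prior count of 2. TPM used the gene length deposited in the tables. Transcripts were compared with BLAST 2.17.0 on GENCODE release M21. The edgeR quasi-likelihood and DESeq2 fits, each with and without the block, were tested on simulated counts. The other settings were not.

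Replicate numbers were treated as pairs, because the study's sample sheet lists each pair together. The labels do not state a shared culture. Replicate differences in Vehicle and EGCG correlated across genes (r = 0.64). Set against counting error, the chi-square per gene between treatments was 10.8 in replicate 1 and 9.18 in replicate 2. Between libraries of different replicate numbers it was 227 to 241. Whether a number marks a shared culture was not tested. P-values without the block measure differences against the spread between libraries of a group. Those with the block measure them against the disagreement between the pairs. The named genes were all 10 members, the fixed lists (their most abundant genes, those with an unadjusted p under 0.05, and the examples named beside them) and the 3 genes nearest to each member by Euclidean distance. Members and lists were chosen with earlier results of these data known. Floors cover counting error only. Protein measurements were not analysed here. A further list of pathway genes is not reported here.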

Additional observations from a re-analysis of the deposited data

How the results depend on the processing

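With treatment only, 16 genes had an unadjusted p under 0.05 and 0 had an adjusted p under 0.1. The unadjusted count was 78 with the likelihood ratio test, 3 with at least 10 counts in every library (which drops Cxcl9 and Cxcl12), 35 with all biotypes, 444 with the edgeR replicate block and 153 with the DESeq2 replicate block, and leaving out 1 library gave 8 to 131, the highest without EGCG replicate 2 and the lowest without EGCG replicate 1. Of these genes 4 of 16 were higher with EGCG with treatment only, 293 of 444 with the edgeR block, 92 of 153 with the DESeq2 block and 13 of 16 without Vehicle replicate 1. DESeq2 without the block gave 24 (4 higher), DESeq2 size factors 16, total counts 17 and no filter 15. At an adjusted p under 0.1 there was 1 gene by DESeq2, 1 with the edgeR block and 7 with the DESeq2 block. Among the chemokines, whose adjusted p stayed above 0.1 throughout, 1 had an unadjusted p under 0.05 by DESeq2 and the likelihood ratio test (Cxcl12). With either block there were 2 (Cxcl10 and Cxcl1). The replicate block turned Cxcl9 to -0.18 in edgeR and -0.46 in DESeq2, and Cxcl14 to 0.034 in edgeR and 0.026 in DESeq2. Leaving out 1 library gave log2 fold changes from -3.33 to 0.60 for Cxcl1, -0.21 to 0.22 for Cxcl2, -2.90 to 1.53 for Cxcl9, -0.35 to 0.75 for Cxcl13, -1.35 to 1.47 for Cxcl14, -0.31 to 0.53 for Cxcl16 and -1.01 to 0.59 for Cx3cl1. Cxcl10 (0.25 to 1.03), Cxcl3 (-0.90 to -0.21) and Cxcl12 (-9.88 to -1.57) kept their direction. With 1 library left out, no block was fitted and its partner stayed unmatched, so the replicate difference entered the fold change. The lone library is assumed to vary like the other group, and the cause of the changes was not tested. At this depth the difference between treatments could not be measured for Cxcl9 in replicate 1, with 3 and 1 counts.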
